A study of Mus musculus with 6 samples.

Results

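The renin-angiotensin system is described here in stretched and resting mouse podocytes, through 9 genes: Agt, Ace, Agtr1a, Agtr1b, Agtr2, Ren1, Mas1, Enpep and Lnpep. The members were the probe sets on the array whose single annotated gene symbol is one of these names. There were 8 such probe sets for 7 of the 9 genes, 2 for Ace and 1 each for Agt, Agtr1a, Agtr1b, Agtr2, Mas1 and Enpep, among 45037 probe sets other than controls. Ren1 and Lnpep had no probe set that met the rule and were not analysed here.

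Podocytes are the epithelial cells whose foot processes cover the capillaries of the kidney's filter, and those used were SVI, a conditionally immortalized mouse podocyte line, so each value describes a single line in culture. All cells had been differentiated for 1 to 2 weeks at 38 °C in RPMI medium with 10% fetal bovine serum. One group of 3 arrays came from unstretched cells, and the other group of 3 from cells stretched along both axes in cycles of 0.5 Hz for 3 days, with linear strain reaching 5%. The series names 3 independent batches but not which arrays share one, and each p-value rests on array-to-array spread that may in part be technical.

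In this hormone system the protease renin cuts the secreted protein angiotensinogen to angiotensin I, which angiotensin-converting enzyme shortens to angiotensin II. Angiotensin II acts through AT1 and AT2 receptors, and aminopeptidases and other enzymes turn it into shorter peptides, some of which act on the receptor Mas. Liver is the main source of circulating angiotensinogen, kidney cells make their own, and glomerular pressure, which stretches podocytes, is among the things the system controls.

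A single member, the precursor gene Agt, changed with stretch, and its level fell to 21.6% of that in unstretched cells. Of the 8 probe sets, 1 was lower and 0 were higher at a Benjamini-Hochberg adjusted p under 0.05 over all probe sets (limma), and the same 1 was the only one with an unadjusted p under 0.05. Over all 45037 probe sets, 4.51% were lower, 6.47% were higher and 11.0% were called in either direction. With 8 probe sets, 1 call is the count that a share of 12.5% gives, which lies near that background, so it is the size of the change in Agt, not the number of calls, that the results below turn on. The median log2 change of the 8 was -0.11, against -0.02 over all probe sets.

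Agt encodes angiotensinogen, the serpin-like protein from which every angiotensin peptide is cut. Its probe set, 1423396_at, had log2 values of 9.16, 9.03 and 9.51 in unstretched replicates 1 to 3 and of 7.06, 6.98 and 7.03 in stretched replicates 1 to 3. The groups lay far apart, with 1.97 log2 units between the lowest unstretched and the highest stretched array, and the stretched arrays were closer together than the unstretched ones. The means were 9.23 ± 0.25 and 7.02 ± 0.04 (SD, n = 3 each). The log2 change, stretched minus unstretched, was -2.21 (SE 0.12, 95% interval -2.48 to -1.94, limma adjusted p = 1.75e-05). On the linear scale this is a level 4.62-fold lower, with an interval of 3.84-fold to 5.57-fold. The two-sided exact permutation test gave p = 0.1, the smallest that 3 against 3 arrays allow. Groups did not overlap in 29.5% of all probe sets, so lack of overlap alone is common on these arrays.

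The level of a probe set depends on its probes as well as on its RNA, so levels are given here as distances from the median gene of the same array, which marks dim probe sets, and are not compared between members. In unstretched cells Agt lay 3.49 ± 0.24 log2 units above the median gene, higher than 87.5% of the 18193 genes measured by their brightest probe set. In stretched cells it lay 1.29 ± 0.03 above (SD, n = 3 each), higher than 62.7% of genes. Agt therefore remained above the median gene on every stretched array. By size of fall it ranked 3 among all genes, and by the size of the moderated statistic, in either direction, it ranked 7.

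**Figure D1:**
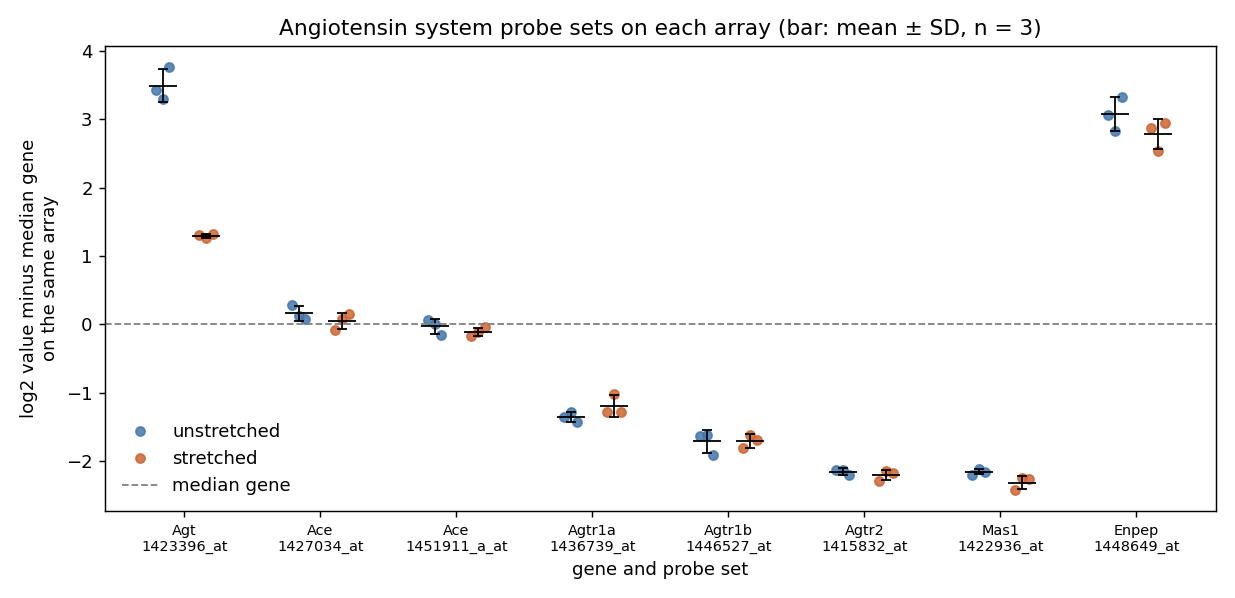
Log2 value of each angiotensin system probe set minus the median gene of the same array (vertical axis), for the 8 probe sets (horizontal axis), with 3 unstretched arrays in blue and 3 stretched arrays in orange; black bars are means and SDs. Agt drops from 3.49 to 1.29 above the median gene, while the points of both groups intermingle or lie close together for the other 7 probe sets, and those of Agtr1a, Agtr1b, Agtr2 and Mas1 lie below the median gene on all 6 arrays.

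The promoter of Agt is shown because it is the only member that passed the test, and because several factors known to act on this gene are described further on. The sequence below runs from 250 bases before to 50 bases after the RefSeq start of the gene, at chr8:124569657-124569956 on the minus strand of GRCm38.p6, with the TATA box motif TATAAA in capitals.
Agt promoter: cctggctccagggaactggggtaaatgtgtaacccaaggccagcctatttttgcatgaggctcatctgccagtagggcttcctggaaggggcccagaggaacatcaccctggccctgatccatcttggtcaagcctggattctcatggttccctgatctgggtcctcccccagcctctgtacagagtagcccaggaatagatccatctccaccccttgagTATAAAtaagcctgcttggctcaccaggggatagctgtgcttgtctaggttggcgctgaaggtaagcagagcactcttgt
The motif begins at position -30 from the start, and 13.6% of 32851 mouse promoter windows of this length hold TATAAA on either strand. In the same search on both strands, the window held no match to TTGCNNAA (C/EBP, in 10.8% of windows), to TGTTCT (half-site of the glucocorticoid receptor, in 19.0%) or to the NF-kB consensus (in 5.80%). Bases outside the window were not searched, so sites of these factors further from the start would not have been seen. Of the motifs searched, TATAAA was thus the only match, with no overlap to report, and a match or its lack describes these letters only. Among the members TATAAA was not particular to Agt. It also lay on the same strand at -31 in Agtr1b and at -29 in Ren1. On the other strand it lay in 1 of 2 windows of Ace and in the window of Enpep.

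The enzymes that act on angiotensin peptides did not pass the test. Ace encodes angiotensin-converting enzyme, which makes angiotensin II and also breaks down bradykinin. Probe set 1427034_at of Ace read 6.03, 5.86 and 5.83 in unstretched and 5.67, 5.81 and 5.87 in stretched replicates 1 to 3. The groups overlapped, since stretched replicate 3 lay above unstretched replicates 2 and 3. The log2 change was -0.13 (95% interval -0.34 to 0.09, limma adjusted p = 0.471). The other Ace probe set, 1451911_a_at, read 5.80, 5.74 and 5.60 in unstretched and 5.58, 5.61 and 5.67 in stretched cells. These groups overlapped too, and the log2 change was -0.09 (95% interval -0.29 to 0.11, limma adjusted p = 0.578). On every array the former lay between -0.08 and 0.29 log2 units from the median gene and the latter between -0.17 and 0.06. On the linear scale their intervals run from 0.791-fold to 1.06-fold and from 0.817-fold to 1.08-fold of the unstretched level.

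Enpep encodes aminopeptidase A, a surface enzyme that trims angiotensin II to angiotensin III. It read 8.81, 8.57 and 9.08 in unstretched and 8.62, 8.26 and 8.66 in stretched replicates 1 to 3. Stretched replicates 1 and 3 lay between unstretched replicates 2 and 1, so the groups overlapped. The mean was 8.82 ± 0.26 in unstretched and 8.51 ± 0.22 in stretched cells (SD, n = 3 each), with a log2 change of -0.31 (SE 0.15, 95% interval -0.63 to 0.02, limma adjusted p = 0.230). This was the widest interval among the members, and it holds levels from 0.646-fold to 1.01-fold of that at rest. With the replicate number as a fixed block the limma adjusted p of Enpep was 0.0601, and as a random block 0.164. Whether the numbers pair the arrays is not known. Like Agt, Enpep was bright, at 3.07 log2 units above the median gene in unstretched and 2.78 in stretched cells. Unstretched replicate 3 gave the highest value of both genes.

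The angiotensin receptors were read by dim probe sets, and none passed the test. Agtr1a and Agtr1b encode the rodent copies of the AT1 receptor, which couples to Gq and raises cell calcium. Agtr1a read 4.39, 4.45 and 4.32 in unstretched and 4.47, 4.71 and 4.43 in stretched replicates 1 to 3. Its highest value was stretched replicate 2, but stretched replicate 3 lay below unstretched replicate 2. The log2 change was 0.15 (95% interval -0.07 to 0.37, limma adjusted p = 0.401), the only positive change among the members at this rounding. Agtr1b read 4.11, 4.13 and 3.85 in unstretched and 3.95, 4.12 and 4.03 in stretched cells, with means of 4.03 in both groups. Its log2 change was 0.00 (95% interval -0.23 to 0.23, limma adjusted p = 0.998).

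Agtr2 encodes the AT2 receptor, whose effects often oppose those of AT1. It read 3.63, 3.61 and 3.55 in unstretched and 3.46, 3.58 and 3.54 in stretched replicates 1 to 3, and the groups overlapped. The log2 change was -0.07 (95% interval -0.26 to 0.12, limma adjusted p = 0.675). Mas1 encodes Mas, a receptor for shorter angiotensin peptides. It read 3.55, 3.63 and 3.60 in unstretched and 3.33, 3.47 and 3.46 in stretched cells. All 3 stretched values of Mas1 lay below all 3 unstretched values, but by 0.08 log2 units at the nearest pair, and the log2 change of -0.17 did not pass (95% interval -0.36 to 0.02, limma adjusted p = 0.250). Agt and Mas1 were thus the 2 of 8 probe sets whose groups did not overlap, 25% against the 29.5% over all probe sets.

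In unstretched cells the receptor probe sets lay at -1.35, -1.71, -2.15 and -2.15 log2 units from the median gene for Agtr1a, Agtr1b, Agtr2 and Mas1, and 23.3%, 13.2%, 4.49% and 4.44% of genes lay lower still. Signal over background is unknown for these arrays, and background correction compresses changes of dim probe sets, so a change of these receptors may not have been detectable. Their narrow intervals describe the spread of the signal, not of the transcript.

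**Figure D2:**
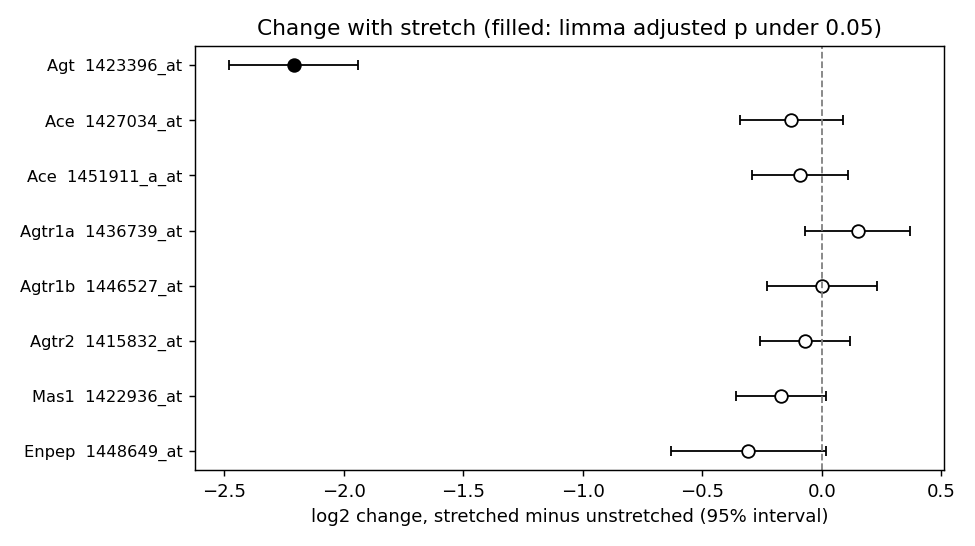
Log2 change, stretched minus unstretched, of each of the 8 probe sets (points) with its 95% interval from limma (bars); the filled point passed an adjusted p under 0.05. Agt stands at -2.21 with an interval of -2.48 to -1.94, and the intervals of the other 7 include 0, that of Enpep reaching from -0.63 to 0.02.

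Other genes of the pathway were taken from 8 lists that hold 108 genes, of which 96 were measured and 12 were not analysed here. Each gene was read by its brightest probe set and tested with limma over all 18193 genes. Of the 96, 9 rose (9.38%) and 12 fell (12.5%), while over all genes 7.98% rose and 6.76% fell. Their median log2 change was 0.00, against -0.02 over all genes. Without stretched replicate 2, 6 fell in place of 12. When only changes beyond 0.5 log2 unit were tested for, 3 rose (Dusp1, Fn1 and Sgk1) and 1 fell (Mme). The largest falls in these lists, of Kng1 and Mme, were smaller than that of Agt.

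Of 15 further enzymes and binding proteins of angiotensin peptides, 3 fell, 1 rose and 11 did not pass (median log2 change -0.06). Mme, which encodes neprilysin, a surface enzyme that cuts angiotensin I into shorter peptides, read 9.27, 9.03 and 9.06 in unstretched and 8.23, 8.08 and 8.10 in stretched replicates 1 to 3. The groups were well separated, and Mme fell by 0.98 on the log2 scale (SE 0.09, limma adjusted p = 1.18e-04), with its other probe set also called lower. Atp6ap2, which encodes the prorenin receptor, a protein of the vacuolar proton pump as well, fell by 0.42 (SE 0.10), and both of its other probe sets were also called lower. Ctsb, a lysosomal cathepsin, fell by 0.36 (SE 0.10), and of its 5 probe sets only 1 other was called lower. Rnpep, aminopeptidase B, rose by 0.42 (SE 0.10). The calls of Ctsb, Atp6ap2 and Rnpep ended when single arrays were left out (limma adjusted p up to 0.126, 0.078 and 0.0653). Anpep, the aminopeptidase that follows Enpep in trimming the peptide, had a log2 change of -0.13 (limma adjusted p = 0.530).

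Among 11 proteins that bind or regulate the receptors, 1 rose and 2 fell (median -0.17). The receptor kinase gene Grk5 rose by 0.72 (SE 0.13, limma adjusted p = 0.00401), from 6.68 ± 0.15 to 7.40 ± 0.24 (SD, n = 3 each). Its other probe set was not called, and with both averaged the change was 0.55 (limma adjusted p = 0.00921). Gabarap, an autophagy protein that also aids receptor transport, fell by 0.38 (SE 0.09), and Arap1 fell by 0.39 (SE 0.09). Both calls ended without some single arrays (limma adjusted p up to 0.0675 and 0.071). Agtrap, whose product binds the AT1 receptor and promotes its uptake, had a log2 change of -0.22 (limma adjusted p = 0.231).

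In the signalling chain downstream of AT1, 2 of 21 genes rose, 2 fell and 17 did not pass (median 0.08). Gna13, a G protein subunit gene, rose by 0.53 (SE 0.10, limma adjusted p = 0.00676), with 4 of its other probe sets called in the same direction. The kinase gene Src rose by 0.36 (SE 0.09), the phospholipase gene Plcb4 fell by 0.39 (SE 0.09) and the protein kinase C gene Prkce fell by 0.39 (SE 0.10). The calls of Src, Plcb4 and Prkce ended with probe sets averaged per gene, where the log2 changes were 0.26, -0.26 and -0.22, and when some single arrays were left out. Gnaq and Gna11, the subunits through which AT1 acts on phospholipase C, had log2 changes of -0.07 and -0.03 (limma adjusted p = 0.664 and 0.865). Trpc6, a calcium channel of podocytes, had a log2 change of 0.00, in a dim probe set at -2.48 log2 units from the median gene.

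Both steroid receptor genes in the lists, whose hormones act downstream of angiotensin or on Agt transcription, fell. Nr3c2, the mineralocorticoid receptor, read 5.74, 6.01 and 5.85 in unstretched and 5.22, 4.96 and 5.12 in stretched replicates 1 to 3, without overlap, and fell by 0.76 (SE 0.10, limma adjusted p = 7.59e-04). Nr3c1, the glucocorticoid receptor, fell by 0.37 (SE 0.09, limma adjusted p = 0.0157), but the call ended with its 6 probe sets averaged (log2 change -0.01, limma adjusted p = 0.964; range over all alternatives 0.0016 to 1) and without stretched replicate 1 or 2 (0.0726 and 0.0618). Sgk1, a kinase induced through both receptors, read 9.67, 9.57 and 9.15 in unstretched and 10.81, 10.60 and 10.53 in stretched cells. It rose by 1.19 (SE 0.14, limma adjusted p = 3.13e-04). Of the 10 genes in the aldosterone list, Sgk1 and Nr3c2 were the ones called (median -0.12).

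Dusp1, a phosphatase that switches off MAP kinases and is a common glucocorticoid target, rose by 1.69 (SE 0.21, limma adjusted p = 4.74e-04). It went from 9.43 ± 0.40 to 11.12 ± 0.37 (SD, n = 3 each). Dusp1 and Nr3c1 were the 2 called of 6 genes in the glucocorticoid list (median 0.12). The targets Fkbp5, Tsc22d3, Per1 and Zbtb16 had log2 changes of 0.09, -0.13, 0.16 and 0.18, and none of the 4 passed.

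Of 14 transcription factors known to act on the Agt gene in liver, fat or kidney cells, 1 fell and 0 rose (median 0.04). The NF-kB subunit gene Relb fell by 0.80 (SE 0.09, limma adjusted p = 3.39e-04). Among those that did not pass, Nfkb2 had a log2 change of -0.29, and Cebpd, Cebpb, Rela and Usf1 had changes of 0.28, 0.27, 0.24 and 0.22. In the same order, their limma adjusted p-values were 0.0675, 0.0782, 0.0785, 0.115 and 0.126. Of Cebpb, another probe set was called higher when all probe sets were tested.

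The kinin system shares enzymes with angiotensin, since Ace also degrades bradykinin. Of 8 genes measured, 1 fell and 0 rose (median -0.08). Kng1, the kininogen precursor of bradykinin, fell by 1.02 (SE 0.12, limma adjusted p = 3.10e-04), from 4.62 ± 0.20 to 3.60 ± 0.14 (SD, n = 3 each). Its probe set was dim, at -1.62 log2 units from the median gene, its other probe set was not called, and with both averaged the change was -0.54. The bradykinin receptor genes Bdkrb1 and Bdkrb2 had log2 changes of -0.21 and 0.07 (limma adjusted p = 0.185 and 0.747).

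Of 11 genes known to respond to angiotensin II in podocytes or other kidney cells, 3 rose, 1 fell and 7 did not pass (median 0.10). Those that rose were fibronectin (Fn1, 1.22, SE 0.08), the calcineurin regulator Rcan1 (0.90, SE 0.09) and the cell cycle inhibitor Cdkn1b (0.80, SE 0.12), and each had another probe set called in the same direction. The growth factor gene Vegfa fell by 0.47 (SE 0.10, limma adjusted p = 0.0107), but its other probe set was not called. With both averaged the log2 change of Vegfa was -0.38 (limma adjusted p = 0.0163). Tgfb1, Ccn2 and Ccl2 had log2 changes of -0.24, 0.32 and 0.10 and did not pass.

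**Figure D3:**
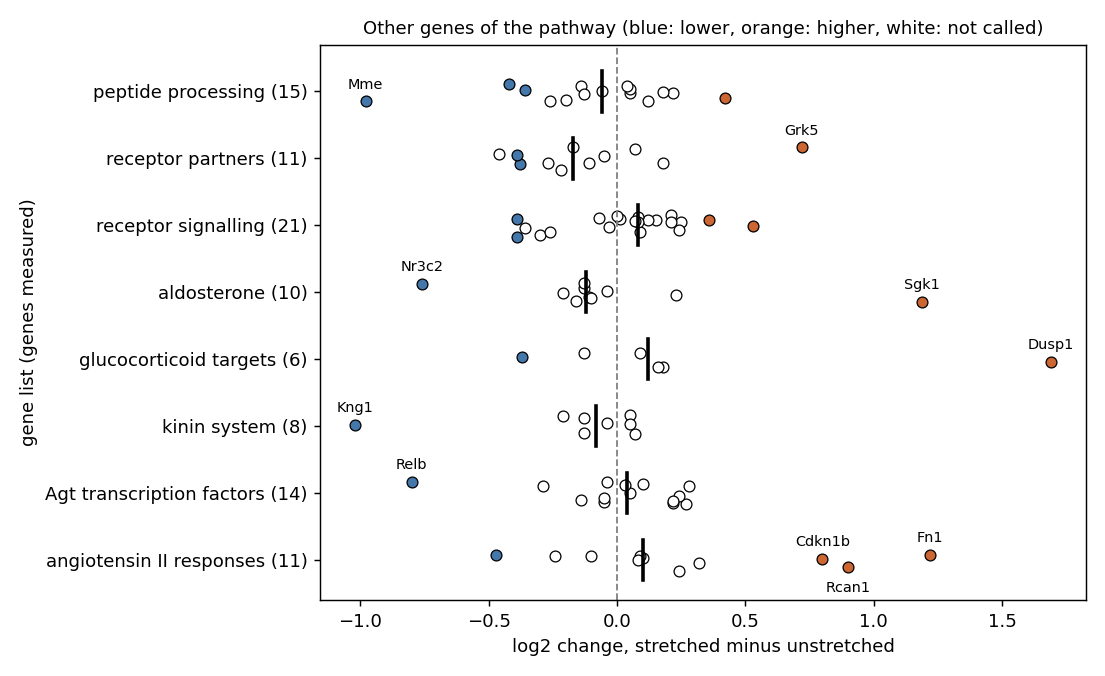
Log2 change, stretched minus unstretched (horizontal axis), of each of the other pathway genes (points) in 8 lists (vertical axis, with the number of genes measured); blue points were called lower and orange points higher by limma, white points were not called, and black bars are list medians. List medians lie between -0.17 and 0.12, and the outlying points are Kng1 and Mme to the left and Dusp1, Fn1 and Sgk1 to the right.

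The genes whose pattern over the 6 arrays was nearest to that of Agt were found by the Euclidean distance between log2 values centred on each gene's mean. The nearest was Itgb2, a leukocyte integrin subunit gene, at a distance of 0.36, followed by the adhesion molecule Vcam1 (0.45), the metallothionein Mt1 (0.50), the growth factor Igf1 (0.51) and Ppfibp2 (0.61). The median distance over genes was 2.73, and 15 genes lay within 1 log2 unit. All 5 fell, with log2 changes of -2.12, -2.25, -2.12, -1.90 and -1.78, and Pearson correlations with Agt over the 6 arrays were 0.983 to 0.992. The 6 points share their 2 groups, so these values mostly restate that each gene fell by a like amount. Within the unstretched arrays all 6 genes were highest in replicate 3, Agt, Vcam1 and Igf1 clearly so, at 1.38, 1.47 and 1.46 above their means, and Itgb2 barely, at 1.09 against 1.04 in replicates 1 and 2. The 5 genes were picked by nearness to Agt on these same arrays, so the choice itself favours a shared order of replicates.

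**Figure D4:**
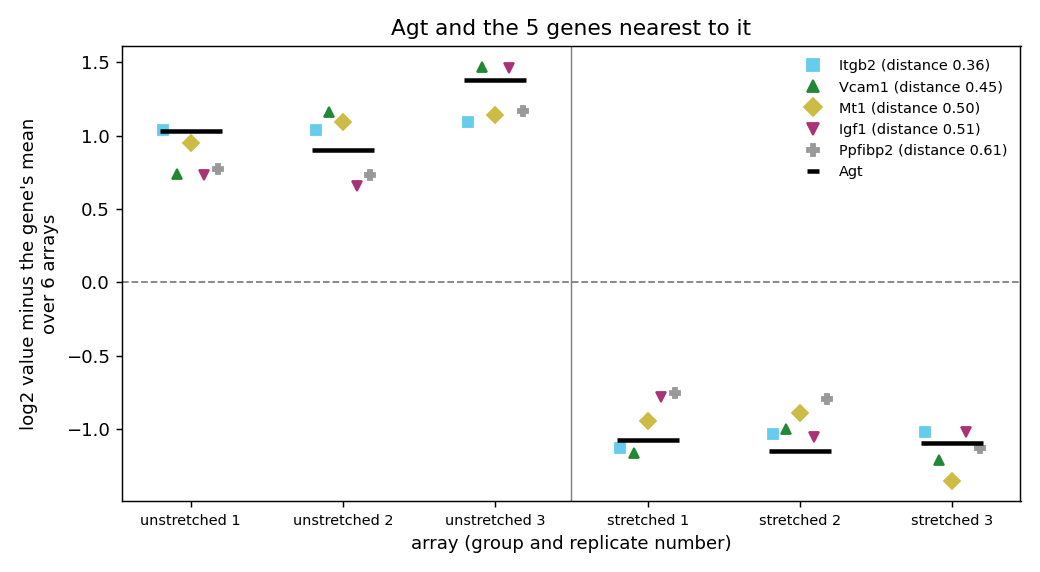
Log2 value minus the gene's own mean over 6 arrays (vertical axis) for Agt (black dashes) and its 5 nearest genes (coloured symbols) on each array (horizontal axis). All 6 genes are at 0.66 or more on the unstretched arrays and at -0.75 or less on the stretched arrays, and in unstretched replicate 3 Vcam1, Igf1 and Agt are the highest.

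Markers of cell types were read on the same arrays, where 7.98% of all genes rose and 6.76% fell. Of the podocyte markers, Wt1, Synpo, Podxl and Cd2ap lay 0.99, 2.46, 2.10 and 4.66 log2 units above the median gene, but the slit diaphragm gene Nphs1 and Ptpro lay at -0.78 and -1.47 from it. Of 6 podocyte markers 1 fell, Synpo (log2 change -0.45, SE 0.08; -0.22 and not called with probe sets averaged). Cd2ap was not called by its brightest probe set (log2 change 0.26, limma adjusted p = 0.0965), but its 2 other probe sets were called higher when all probe sets were tested. For cells that make much Agt elsewhere, 0 of 5 hepatocyte and 0 of 3 adipocyte markers lay above the median gene, and none of the 8 was called. Of 5 leukocyte markers 2 fell, Cd68 by 0.89 (SE 0.12) and Csf1r by 0.50 (SE 0.11). Ptprc, Adgre1 and Itgam did not pass, with log2 changes of -0.28, -0.21 and -0.03, and the mean log2 level of the 5 was 5.36 to 5.48 on unstretched and 5.00 to 5.11 on stretched arrays. Csf1r lay 2.89 log2 units above the median gene. The defining leukocyte gene Ptprc lay at -1.54 from it, and Cd68, Adgre1 and Itgam at -0.65, -1.19 and -1.98. Of 4 fibroblast markers 1 fell, Dcn (log2 change -1.50, SE 0.12; -0.68 with probe sets averaged). Col1a1, Col1a2 and Pdgfra did not pass, with log2 changes of 0.09, 0.08 and -0.04. The mean log2 level of all 4 was 5.54 to 5.80 on unstretched and 5.22 to 5.38 on stretched arrays.

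Some markers of other cell types rose. Of 6 proximal tubule markers 3 did, Aqp1 by 2.09 (SE 0.22), Slc17a1 by 2.30 (SE 0.27) and Cubn by 0.49 (SE 0.12). The call of Cubn ended without some single arrays (limma adjusted p up to 0.0776). Slc34a1, Slc5a2 and Lrp2 did not pass, with log2 changes of 0.12, 0.12 and 0.06. The mean log2 level of all 6 was 6.14 to 6.27 on unstretched and 6.94 to 7.27 on stretched arrays. Of 6 mesangial and juxtaglomerular markers 2 rose, Tbx18 by 1.03 (SE 0.10) and Pdgfrb by 0.41 (SE 0.09; 0.13 and not called with probe sets averaged). The mean log2 level of all 6 was 7.51 to 7.60 on unstretched and 7.80 to 7.88 on stretched arrays. No endothelial marker of 6 was called by limma. RNA quality was read from the beta-actin controls, where the 3' probe set exceeded the 5' one by 1.57 ± 0.03 in unstretched and 1.30 ± 0.05 log2 units in stretched cells (SD, n = 3 each; exact permutation p = 0.1). For the Gapdh controls the same difference was 0.25 ± 0.07 and 0.16 ± 0.10 log2 units (SD, n = 3 each; exact permutation p = 0.4). The part of these markers and controls in the fall of Agt was not tested. In bulk RNA, fewer cells that express a gene and less of its RNA per cell cannot be told apart.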

How the data were processed

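Groups and replicate numbers came from the sample titles. The values the authors deposited are log2 expression, with 1 value for each probe set on each array, made with RMA per the submitters' processing notes (version not given in the sources used here). RMA corrects background and sets arrays to a common level, so a global shift of RNA cannot be seen; the number of arrays limits precision. Of 45101 probe sets, 64 controls were left out, 34945 had 1 gene symbol in the platform annotation, 932 had several and 9160 were not listed.

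The change from unstretched to stretched was estimated in R 4.3.3 with lmFit and eBayes of limma 3.58.1, with no covariates: over all probe sets for the members, and over 1 probe set per gene, the one with the highest mean, for the other pathway and marker genes. P-values were Benjamini-Hochberg adjusted over the whole table, with a threshold of 0.05. The steps were tested on simulated data.

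Named are all member probe sets, up to 4 called genes of each pathway list by moderated statistic, called markers where a list had 3 or fewer, and the 5 genes nearest to Agt; other genes given with values were chosen after their values were seen. The members and lists were chosen with earlier results of these data known. Promoter sequences came from RefSeq (GRCm38.p6), where 8 of the 9 members matched.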

Additional observations from a re-analysis of the deposited data

How the results depend on the processing

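The fall of Agt kept its direction and passed in all 15 alternatives run, with log2 changes from -2.31 to -2.07 and limma adjusted p up to 2.73e-04. Only leaving out arrays and rescaling them could move its estimate. The blocks, filter, prior, minimum change and probe set choices kept it at -2.21, since the groups are balanced and Agt has 1 probe set. The other 7 member probe sets were called in none of the 13 to 15 alternatives that gave each a value, and the member counts stayed at 1 lower and 0 higher. Leaving out single arrays gave Agt changes of -2.31 to -2.07, and 8 to 10 higher and 6 to 13 lower calls among the other pathway genes, the 6 without stretched replicate 2. Requiring a minimum change of 0.5 log2 unit left 3 higher and 1 lower. With the replicate number as a fixed block, Agt changed by -2.21 (adjusted p = 4.05e-05), and 10 pathway genes were higher and 14 lower; as a random block, 10 and 15. Same-numbered arrays correlated at 0.02, 0.10 and 0.27 in their deviations from the group means, and differently numbered ones at -0.21 to 0.13. Deviations cancel within each group, so these values cannot decide whether the numbers pair the arrays. The main fit did not use the numbers. Quantile normalization again, centring on medians, a filter on dim probe sets, another prior and other choices of probe set changed no count by more than 1.5 times. Against the median of all probe sets, 4 member probe sets lay above it in unstretched cells, in place of 3 against the median gene. No called result reversed; Agtr1b, at 0.00, ranged from -0.09 without unstretched replicate 3 to 0.05 without unstretched replicate 2. Detection calls were not used here, so what the dim receptor probe sets can show is limited.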
